A study of Mus musculus with 11 samples.

Results

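Deubiquitinating enzymes were followed here through 5 sorted fractions of the mouse fetal liver. The members were all genes whose symbol in the platform annotation begins with Usp and a number, with Otud or Otub, or with Uchl and a number, which gave 63 of the 18193 genes with a probe set of their own. Each gene was read from the single-gene probe set with the highest mean log2 signal over all 11 arrays. Of the 63 genes, 53 passed a filter on dim probe sets and were tested among 13100 genes. The symbols also bring in 2 genes from outside the deubiquitinase families. These are Usp6nl, which encodes a GTPase-activating protein for Rab GTPases, and Usp46os2, an opposite-strand transcript named after Usp46. That leaves 52 tested genes of the deubiquitinase families. Not all of these cut ubiquitin, since Usp18 removes another protein and Usp39 lacks the catalytic residues.

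The arrays measured total RNA of fetal liver cells of C57/Bl6 embryos at E14.5, with no treatment and no altered allele given in the labels for any fraction. Freshly isolated cells were stained for Ter119, an antigen of maturing red cells, and CD71, the transferrin receptor, and sorted into the fractions R1 to R5, which the labels order as successive stages of erythroid development. In the sorting scheme that the labels cite, cells gain CD71 from R1 to R2, gain Ter119 from R2 to R3, and lose CD71 from R3 through R4 to R5. R1 had 2 arrays, R2 had 3, R3 had 3, R4 had 1 and R5 had 2. Each fraction is a gate on a mixed tissue and can hold other cells that fall inside it.

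Ubiquitin is joined to proteins by a chain of E1, E2 and E3 enzymes and marks them for the proteasome, for sorting between membranes or for signalling. Deubiquitinases cut ubiquitin off again. They rescue proteins from destruction, trim chains, recycle ubiquitin at the proteasome and erase the ubiquitin marks of histones H2A and H2B. Red cell precursors are known to clear most of their organelles and much of their proteome as they mature, to condense their nucleus and to expel it, and the ubiquitin system is known to take part in this remodelling.

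The promoter windows of 3 genes with the smallest adjusted p-values among the members that rose from R2 to R3, and of the one with the smallest among those that fell, are shown so that the genes behind the main result can be seen. Each window runs from 250 bases before to 50 bases after an annotated start, is taken from RefSeq on build GRCm38.p6 and is written 5′ to 3′ on the gene's strand, with CACCC on either strand in capitals. CACCC is the core of the element read by erythroid Krüppel-like factors.
Usp32, chr11:85139906-85140205, minus strand: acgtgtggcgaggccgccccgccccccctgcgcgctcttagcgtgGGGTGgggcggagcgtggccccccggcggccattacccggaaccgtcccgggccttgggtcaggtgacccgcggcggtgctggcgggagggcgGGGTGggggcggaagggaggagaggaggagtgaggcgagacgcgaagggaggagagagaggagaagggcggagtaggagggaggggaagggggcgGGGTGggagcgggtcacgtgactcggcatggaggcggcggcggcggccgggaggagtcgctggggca
Otub2, chr12:103376644-103376943, plus strand: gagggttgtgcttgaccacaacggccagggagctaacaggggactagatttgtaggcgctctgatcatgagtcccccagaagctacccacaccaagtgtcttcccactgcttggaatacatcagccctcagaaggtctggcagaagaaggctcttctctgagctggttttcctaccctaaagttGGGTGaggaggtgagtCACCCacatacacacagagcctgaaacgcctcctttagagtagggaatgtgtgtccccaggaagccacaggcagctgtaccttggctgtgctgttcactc
Usp7, chr16:8738293-8738592, minus strand: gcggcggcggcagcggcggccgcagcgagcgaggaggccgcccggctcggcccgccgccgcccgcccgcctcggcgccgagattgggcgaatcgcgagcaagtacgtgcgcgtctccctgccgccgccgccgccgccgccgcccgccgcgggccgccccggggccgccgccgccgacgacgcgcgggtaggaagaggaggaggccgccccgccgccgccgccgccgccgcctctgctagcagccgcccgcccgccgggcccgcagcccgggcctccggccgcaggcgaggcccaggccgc
Usp11, chrX:20703659-20703958, plus strand: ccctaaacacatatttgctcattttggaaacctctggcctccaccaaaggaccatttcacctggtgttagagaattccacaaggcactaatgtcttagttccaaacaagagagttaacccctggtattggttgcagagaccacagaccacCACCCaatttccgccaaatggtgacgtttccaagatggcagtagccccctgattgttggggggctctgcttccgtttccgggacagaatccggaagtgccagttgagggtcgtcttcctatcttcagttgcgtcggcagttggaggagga
The Usp32 window holds 3 of these CACCC matches, 1 match to the E-box read by basic helix-loop-helix factors, and a GC content of 75.7%. The Otub2 window, the first of 3 annotated for that gene, holds 2 of the capitalised matches at a GC content of 54%. The Usp7 window, which lies inside the gene's annotated span, holds none at a GC content of 86% and has 1 match to the CCAAT box. The Usp11 window holds 1 capitalised match and 2 matches to that box at a GC content of 50.7%.

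Over all members, 52 windows of 48 genes were listed. CACCC on either strand was present in 67.3% of member windows and in 57.5% of all 32851 windows of this length. The E-box CACGTG was in 13.5% of member windows and in 7.15% of all, CCAAT in 30.8% against 37.4%, and TATAAA in 3.85% against 13.6%. The GATA element in its form AGATAA occurred in 1 member window, that of Uchl4, which is 1.92%, and in 11.2% of all windows. Its other form, TGATAA, was in no member window and in 9.05% of all. The median GC content was 63.7% in member windows and 52.7% in all. Some windows overlap, and a match is only a run of letters.

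Tfrc, which encodes CD71, had log2 signals between 12.39 and 12.49 on the R1 arrays, and the lowest R3 array (15.24) lay above the R2 arrays, which began at 13.52. It rose from R2 to R3 by 1.49 ± 0.32 (SE, adjusted p = 0.0125), while the difference of 1.51 between R1 and R2 did not pass (adjusted p = 0.109). The later arrays did not show lower Tfrc RNA, at 15.34 in R4 and 15.11 and 16.13 in R5 (R5 minus R3 0.19, adjusted p = 0.783), although the gates are set on less CD71 protein there. The mean log2 signal of 11 tested erythroid marker genes was 9.31 to 10.6 for R1 arrays and 10.8 to 12.4 for R2 arrays, while every array of R3, R4 and R5 lay between 14.4 and 15.5. Markers of other liver cells moved too. All 7 tested hepatocyte genes rose from R2 to R3, with a mean log2 signal of 9.57 to 9.82 for R1 arrays, 7.43 to 9.08 for R2 arrays, 11.7 to 12.8 for R3 arrays and 12.3 to 13.99 for R5 arrays, beside 12.7 for the R4 array. All 7 were also higher in R5 than in R2. Of the 7 endothelial genes 2 rose from R2 to R3 and 5 from R2 to R5, and of the 9 macrophage genes 2 and 3 rose. Over all genes, 20.7% were called between R2 and R3 (10.6% higher, 10.1% lower). Between R2 and R5 33% were called (16.7% higher, 16.3% lower). The macrophage shares called in either direction, 22.2% and 33.3%, were near those of all genes. No marker list was tested against the rest. The endothelial mean was 7.12 to 7.14 for R1 arrays, 5.12 to 5.67 for R2 arrays, 6.27 to 6.66 for R3 arrays and 6.99 to 7.79 for R5 arrays, and the macrophage mean was 8.46 to 9.28, 7.53 to 7.81, 8.29 to 8.67 and 9.18 to 9.36. Between R2 and R3, 3 of 9 progenitor genes fell, and no granulocyte, lymphocyte, megakaryocyte or mast cell marker was called. Between R2 and R5, 4 of 10 granulocyte genes rose and 1 fell, 2 of 8 megakaryocyte genes and 1 of 8 lymphocyte genes rose, 1 of 9 progenitor genes rose and 2 fell, and no mast cell gene was called. A control for RNA integrity, the log2 signal of the 3′ probe set of pyruvate carboxylase minus that of its 5′ probe set, was 0.20 to 0.38 for R1 arrays, 0.75 to 1.84 for R2 arrays, 2.45 to 3.29 for R3 arrays and 2.27 to 4.62 for R5 arrays, beside 2.72 for the R4 array. The same measure for actin had no such order, at 0.25 to 0.35 for R1 arrays, 0.32 to 0.80 for R2 arrays, 0.24 to 0.83 for R3 arrays, 0.21 for the R4 array and 0.43 to 0.44 for R5 arrays. No marker was at 0, since the deposited signals were all positive. The part of these other cells and of RNA integrity in the results below was not tested, and in bulk RNA fewer cells of a type and less RNA per cell cannot be told apart.

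Most tested members had signals above the middle of the array, which the filter and the choice of the brightest probe set per gene favour. The corresponding share over all tested genes was not taken. Of the 53 tested genes, 46 reached the median signal of the array on all 11 arrays and 7 fell below it on at least 1. By the probe set used, the 10 genes not tested were Otud7a, Uchl4, Usp13, Usp17la, Usp26, Usp29, Usp44, Usp46os2, Usp50 and Usp9y, and that probe set reached the array's median on at most 1 array for each. A dimmer probe set of Usp13 passed the filter, with 8.03 on R5 replicate 2, but was not the set chosen by the rule. The median log2 signal over the tested members was between 9.47 and 9.91 on every array. The median over all probe sets was 5.74 to 6.06 on the R2 arrays, 6.18 to 6.45 on those of R3 and 6.75 to 6.91 on those of R5.

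**Figure D1:**
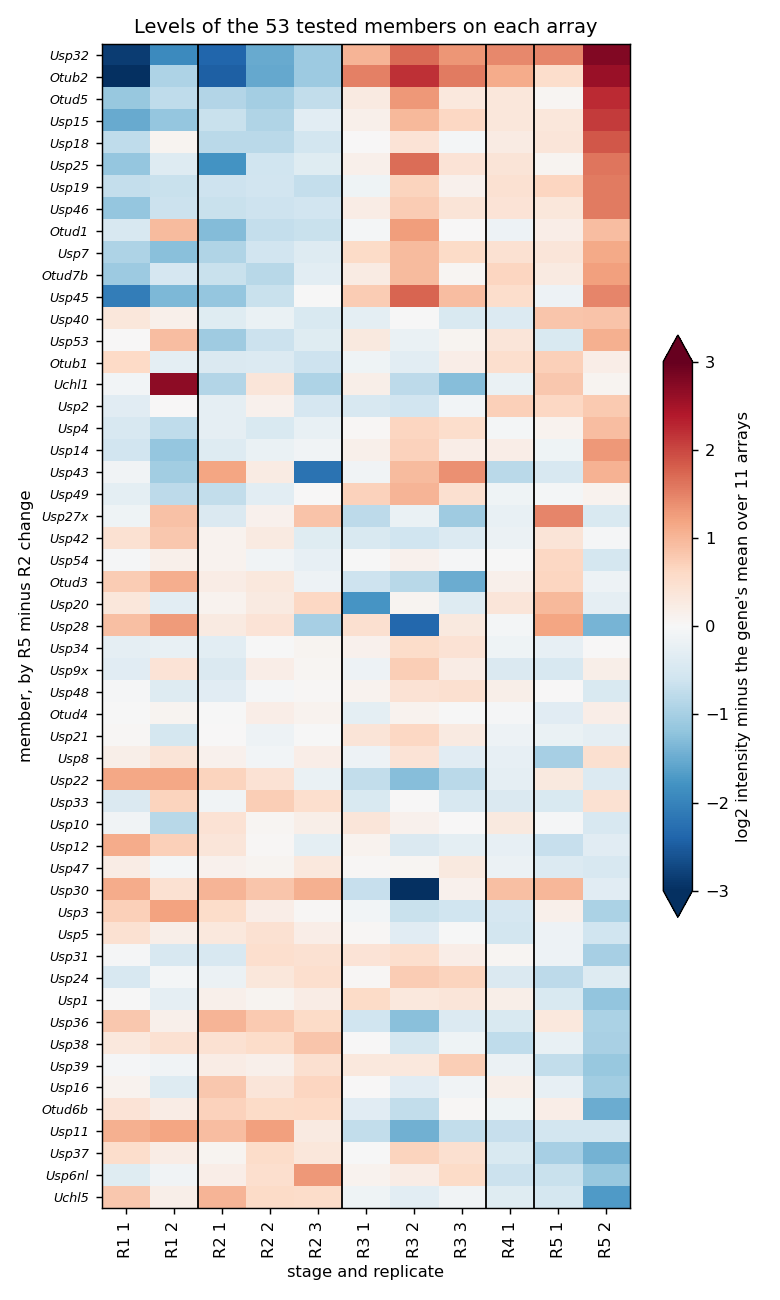
The log2 signal of each of the 53 tested members on each of the 11 arrays (columns, ordered R1 to R5), as the difference from that gene's mean over the arrays, on a colour scale from -3 to 3. Usp32 and Otub2 are low in R1 and R2 and high from R3 on, while Usp11 runs the other way.

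From R2 to R3, when cells gain Ter119, 9 members changed and most of the family did not pass the test. Usp32, Otub2, Usp7, Usp45, Usp46 and Usp49 rose, by 2.11-fold (Usp46) to 10.9-fold (Otub2). Usp11, Usp36 and Usp22 fell, by 2.37-fold (Usp22) to 3.44-fold (Usp11). These 9 are 17% of the 53 tested, while 20.7% of all 13100 genes were called in the same comparison, so the share among members was near that of genes at large. By direction the background was 10.6% higher and 10.1% lower. The median change was 0.12 on the log2 scale over members and -0.14 over all genes. Calls are at an adjusted p under 0.05 from limma, with Benjamini-Hochberg adjustment over all tested genes.

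The balance of rises and falls depends on how the arrays are scaled. On the deposited scale it was 6 up and 3 down, and with each array centred on its median log2 signal it was 3 up (Otub2, Usp32 and Usp45) and 10 down, when 30.3% of all genes were called, 862 up and 3103 down. That centring moves the median change of all genes from -0.14 to -0.54, so each change should be read beside the median of all genes. With quantile normalization the balance was 10 up and 3 down, when 15.5% of all genes were called, 1174 up and 862 down. The count rests on few arrays. It was 3 without R2 replicate 1 and also 3 without R3 replicate 2, 4 without R2 replicate 2 and 5 without R3 replicate 1. Arrays of the other fractions enter only through the shared estimate of spread. The share of all genes called moved the same way in each of these fits. It was 6.41% without R2 replicate 1, 6.45% without R3 replicate 2, 8.36% without R2 replicate 2 and 11.6% without R3 replicate 1. With the replicate number as a block 20 members were called, 12 up and 8 down, among them all 9 named here, when 32% of all genes were called. The labels state a common extraction date for each set of replicates, which may or may not mean arrays of the same number. Usp32, Otub2 and Usp11 were called in all 11 of the fits that leave out 1 array.

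**Figure D2:**
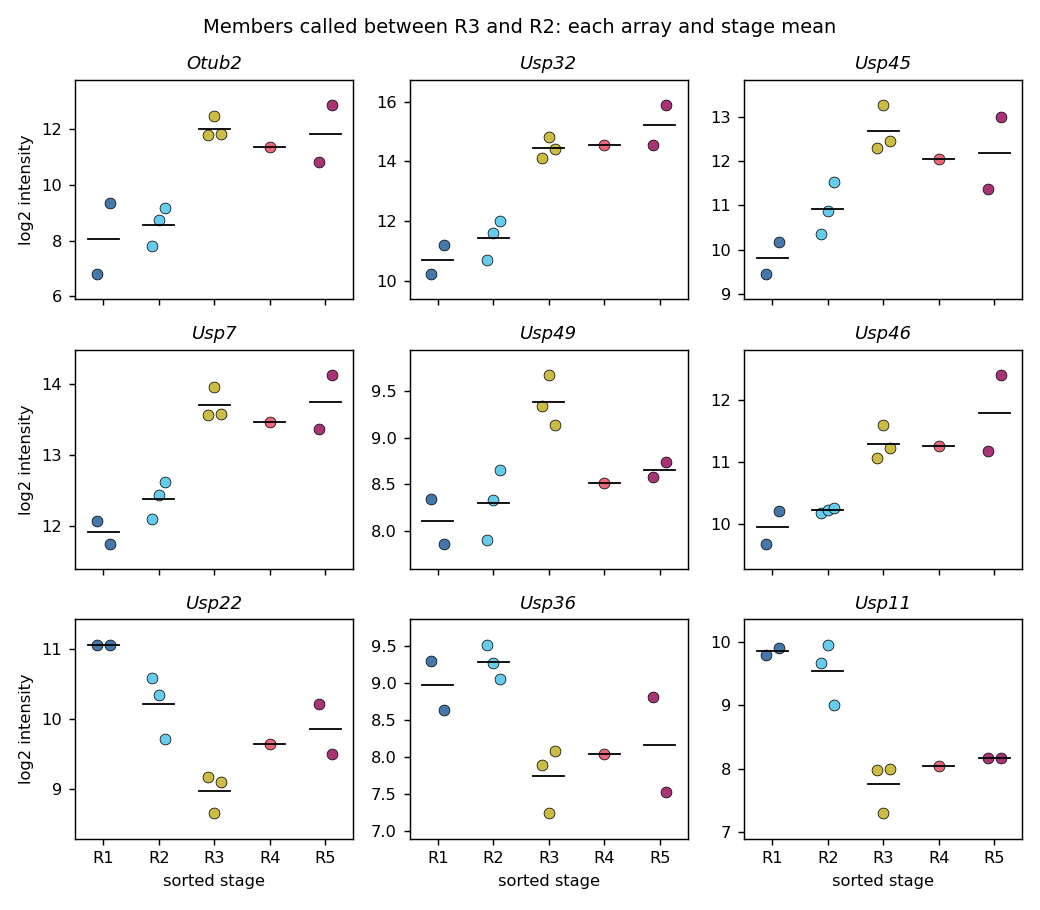
Log2 signal (vertical axis) of the 9 members called between R2 and R3, with a point for each array by fraction and a short horizontal line at each fraction mean. In the panels of the 6 that rose every R3 point lies above every R2 point, and in the panels of the 3 that fell every R3 point lies below.

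Usp32, a membrane-attached deubiquitinase with EF-hand motifs known from the Golgi and late endosomes, had the smallest adjusted p of the family. The gene lies at chr11:84984437-85140281 (GRCm38.p6, as for all genes below). The arrays gave log2 signals of 10.25 and 11.20 in R1, 10.72, 11.60 and 12.02 in R2, 14.13, 14.80 and 14.42 in R3, 14.54 on the R4 array, and 14.56 and 15.88 in R5. Every array from R3 on lay above every array of R1 and R2. The rise from R2 to R3 was 3.00 ± 0.44 on the log2 scale (SE, 8.02-fold, adjusted p = 0.00191). Its other probe sets gave changes of 2.95 and 3.20. Usp32 also kept a positive change with the arrays centred on their median.

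Otub2, an OTU-family protease known to cut ubiquitin chains and to act in DNA damage signalling, lies at chr12:103376894-103406350. Log2 signals were 6.81 and 9.35 in R1, 7.82, 8.74 and 9.18 in R2, 11.78, 12.46 and 11.83 in R3, 11.38 on the R4 array, and 10.81 and 12.87 in R5. The fractions from R3 on did not overlap R1 or R2, though the R1 arrays differed from each other by more than the R3 arrays did. From R2 to R3 it rose by 3.45 ± 0.68 (SE, 10.9-fold, adjusted p = 0.00829). Its paralog Otub1, which binds E2 enzymes and blocks ubiquitin transfer as well as cutting chains, had log2 signals of 8.26 to 8.47 in R2 and 8.58 to 9.08 in R3, a difference of 0.41 ± 0.33 (adjusted p = 0.354). A second Otub1 probe set differed by -2.46, so the probe sets of Otub1 disagree in direction. Whether the paralogs differ in their change was not tested.

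Usp7, also named Hausp and known for acting on Mdm2 and p53, lies at chr16:8688722-8757067. It gave log2 signals of 12.07 and 11.75 in R1, 12.09, 12.42 and 12.61 in R2, 13.56, 13.95 and 13.57 in R3, 13.46 on the R4 array, and 13.36 and 14.12 in R5. R2 and R3 did not overlap, and the rise was 1.32 ± 0.28 (SE, 2.5-fold, adjusted p = 0.0107). The other 6 probe sets of Usp7 gave changes of 0.93 to 2.35.

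Usp45, which acts on the repair nuclease subunit Ercc1, lies at chr4:21767161-21837872. Its log2 signal was 9.45 and 10.18 in R1, 10.36, 10.87 and 11.52 in R2, 12.29, 13.26 and 12.46 in R3, 12.05 on the R4 array, and 11.37 and 12.99 in R5. R3 lay above R2 on every array, whereas the lower R5 array fell within the R2 range. The rise from R2 to R3 was 1.75 ± 0.47 (SE, 3.37-fold, adjusted p = 0.0269).

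Usp46 and Usp49 had the smallest rises among the genes called. Usp46, which works in a complex with the WD-repeat proteins Wdr48 and Wdr20, lies at chr5:73998726-74068411. The arrays gave log2 signals of 9.68 and 10.21 in R1, 10.17, 10.22 and 10.26 in R2, 11.06, 11.60 and 11.22 in R3, 11.26 on the R4 array, and 11.17 and 12.41 in R5. It rose by 1.08 ± 0.34 (SE, adjusted p = 0.0458), a call that held in 3 of the 11 fits that leave out 1 array. Its paralog Usp12, which shares these partners, had 8.44 to 9.09 in R2 and 8.29 to 8.84 in R3, with overlapping arrays and a difference of -0.25 ± 0.31 (adjusted p = 0.568). The difference between these paralogs was not tested.

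Usp49, a histone H2B deubiquitinase, lies at chr17:47630690-47686739. Log2 signals were 8.35 and 7.86 in R1, 7.90, 8.33 and 8.65 in R2, 9.34, 9.67 and 9.13 in R3, 8.52 on the R4 array, and 8.58 and 8.74 in R5. R3 stood above all other fractions, with R5 back near the R2 range. It rose by 1.08 ± 0.32 (SE, adjusted p = 0.0374) from R2 to R3, but a second, dimmer probe set differed by -0.12. Usp49 is the single gene of the 9 for which a second probe set went the other way.

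Usp11, a nuclear paralog of Usp4 and Usp15 known for acting with Brca2 in DNA repair, lies at chrX:20703909-20720539. It gave log2 signals of 9.80 and 9.91 in R1, 9.66, 9.95 and 9.004 in R2, 7.98, 7.30 and 7.99 in R3, 8.04 on the R4 array, and 8.18 and 8.17 in R5. All arrays from R3 on lay below all arrays of R1 and R2. The fall from R2 to R3 was -1.78 ± 0.34 (SE, 3.44-fold, adjusted p = 0.0072), read from its only probe set.

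Its paralogs took other values. Usp4 had 10.69 to 10.93 in R2 and 11.18 to 11.80 in R3, a difference of 0.72 ± 0.29 (adjusted p = 0.093). Usp15, which acts on receptor-activated Smads in TGF-beta signalling, had 11.36 to 11.96 in R2 and 12.43 to 13.25 in R3, a difference of 1.22 ± 0.42 (adjusted p = 0.0591). Neither passed the test in this comparison although their R2 and R3 arrays did not overlap.

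Usp36, a nucleolar deubiquitinase needed for ribosome production, lies at chr11:118259651-118290260. Its log2 signal was 9.31 and 8.65 in R1, 9.52, 9.27 and 9.06 in R2, 7.90, 7.24 and 8.09 in R3, 8.04 on the R4 array, and 8.81 and 7.53 in R5. R3 lay below R2, by -1.54 ± 0.41 (SE, 2.91-fold, adjusted p = 0.0258), and its 2 other probe sets gave -2.24 and -0.56.

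Usp22, the histone deubiquitinase of the SAGA coactivator complex, lies at chr11:61151781-61175059. The arrays gave log2 signals of 11.06 on both R1 arrays, 10.59, 10.35 and 9.71 in R2, 9.17, 8.64 and 9.10 in R3, 9.64 on the R4 array, and 10.22 and 9.49 in R5. On this probe set R3 was the lowest fraction and R5 overlapped R2. The fall from R2 to R3 was -1.25 ± 0.33 (SE, 2.37-fold, adjusted p = 0.0251), and a second probe set gave -1.22. That second set went on falling in value, to 2.67 and 3.96 in R5 (R5 minus R2 -3.92), so the probe sets disagree on R5.

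By role, the calls between R2 and R3 fell into 3 groups, and each count stands beside the 20.7% of all genes called. Among 10 tested members linked to DNA damage and replication, 3 rose (Otub2, Usp7 and Usp45) and 1 fell (Usp11), which is 40%, with a median change of 0.34. Among 9 tested histone H2A and H2B deubiquitinases, 2 rose (Usp46 and Usp49) and 2 fell (Usp36 and Usp22), which is 44.4%, with a median of -0.71. With 9 or 10 members a group, these shares rest on 4 genes each and were not tested against the rest. Of 10 members listed under endosomes, secretory or organelle membranes, only Usp32 was called, and the median was -0.08. No call fell among the 6 OTU-family enzymes of selective chain linkage, the 4 non-classical members or the 4 enzymes of the proteasome and free ubiquitin. The list of roles was drawn up with earlier results of these data known, and the same median over all tested genes was -0.14.

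At an unadjusted p under 0.05 there were 22 of 53 members, beside 5258 of 13100 genes, and the R2 and R3 arrays of 34 members did not overlap, 21 higher and 13 lower. Over all genes 49.9% did not overlap, 22.6% higher and 27.4% lower. Members just outside were Usp25 (1.66, adjusted p = 0.0502), Otud5 (1.51, adjusted p = 0.0511) and Otud3 (-1.10, adjusted p = 0.0536), which, like Usp15, were called with the replicate number as a block.

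Usp30, which opposes Parkin at the mitochondrial outer membrane, had the lowest estimate of all without being called. Log2 signals were 7.97, 7.80 and 8.01 in R2 and 6.27, 1.47 and 7.08 in R3, then 7.86 in R4 and 7.95 and 6.61 in R5. The estimate of -2.98 ± 1.15 (SE, adjusted p = 0.0819) includes R3 replicate 2, which was far below the other arrays. A second probe set of Usp30 differed by only -0.22, with 6.62 on R3 replicate 2.

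**Figure D3:**
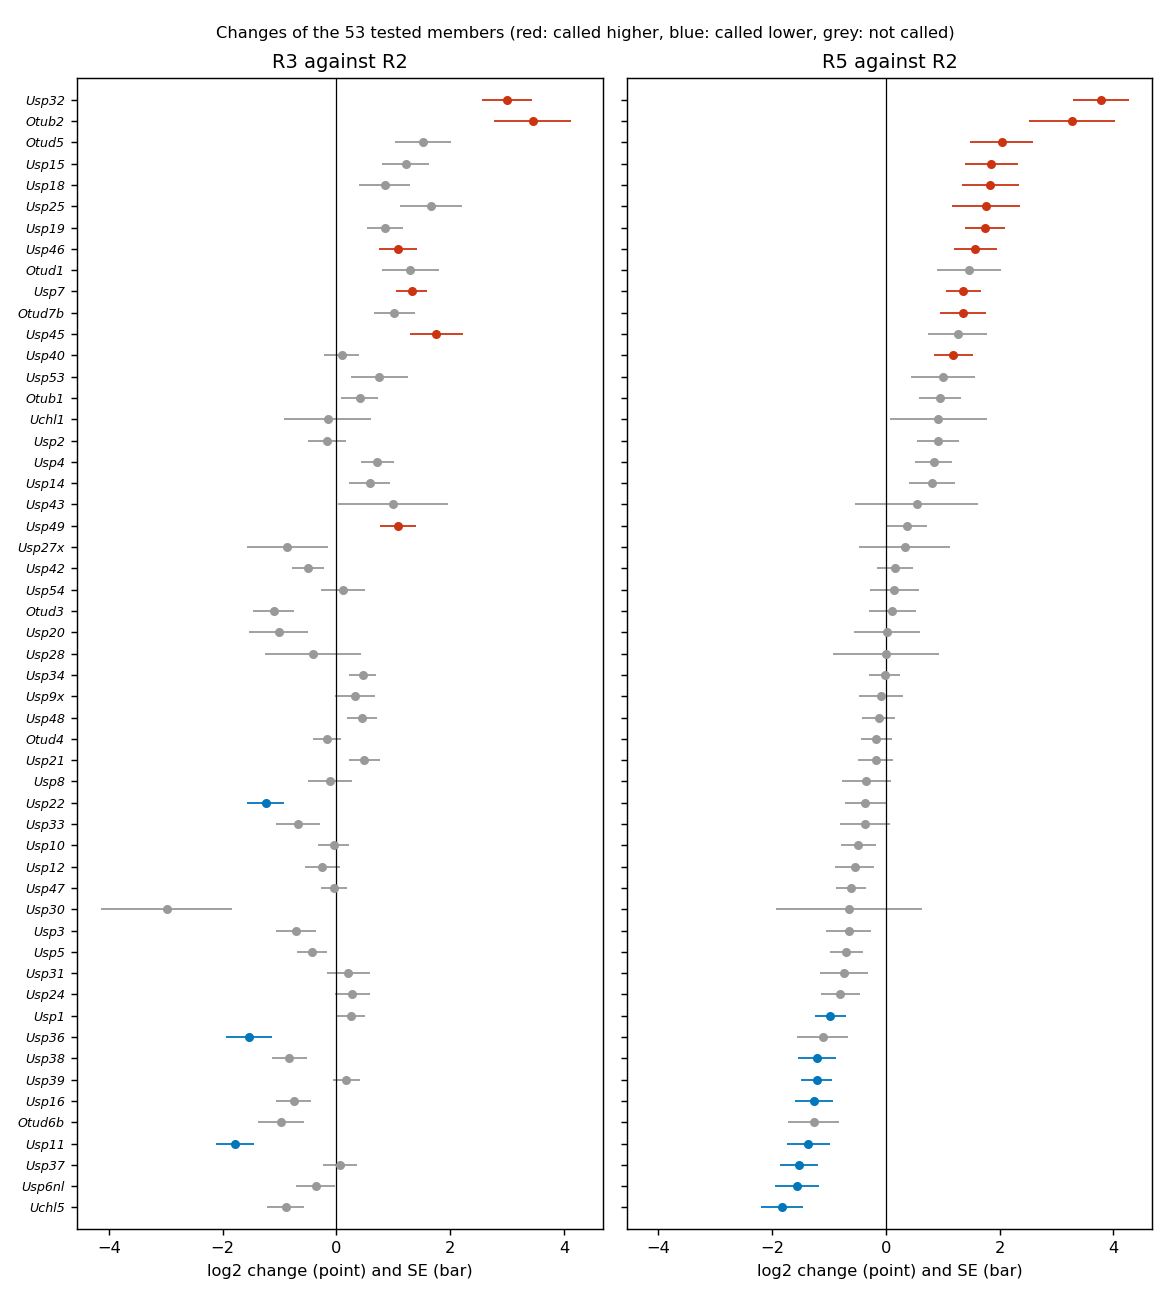
Change in log2 signal with its standard error (horizontal axis) for each of the 53 tested members (vertical axis), R3 minus R2 and R5 minus R2, with called rises in red, called falls in blue and all others in grey. In the R3 comparison 9 members are coloured and in the R5 comparison 19, and Usp32 and Otub2 stand furthest to the right in both.

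From R2 to R5, the end of the series, 19 members changed, 11 upward and 8 downward. Usp32, Otub2, Otud5, Usp15, Usp18, Usp25, Usp19, Usp46, Usp7, Otud7b and Usp40 rose. Uchl5, Usp6nl, Usp37, Usp11, Usp16, Usp39, Usp38 and Usp1 fell, of which Usp6nl lies outside the deubiquitinase families. The 19 are 35.8% of 53, and 33% of all genes were called, 16.7% higher and 16.3% lower. The median change was 0.01 over members and 0.00 over all genes. The R2 and R5 arrays of 31 members did not overlap, 15 higher and 16 lower, while 61.3% of all genes did not, 31% higher and 30.4% lower. These comparisons use the same R2 arrays as those of R3 with R2.

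The same limits apply more strongly here. With the arrays centred on their median, which moves the median of all genes to -0.94, 2 members rose (Usp32 and Otub2) and 24 fell, when 47.9% of all genes were called, 943 up and 5336 down. The count was 11 without R2 replicate 1, 11 without R2 replicate 2, and 1, which was Usp32, without R5 replicate 2, when 8.04% of all genes were called. Over all genes, 18.8% were called without R2 replicate 1 and 20.8% without R2 replicate 2. The R5 arrays stood apart. All 11 members called higher had a higher signal on R5 replicate 2 than on R5 replicate 1, by a median of 1.32, and all 8 called lower had a lower one, by a median of -0.59. Over all 53 tested members, 26 were higher and 27 lower on R5 replicate 2. The same gap was not taken over all called genes, so whether it is particular to the members is not known.

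Usp32 rose by 3.78 ± 0.49 (SE, 13.7-fold, adjusted p = 0.000632) and Otub2 by 3.27 ± 0.76 (SE, 9.61-fold, adjusted p = 0.0111), so both ended well above R2. Usp7 (1.36 ± 0.31, adjusted p = 0.0101) and Usp46 (1.57 ± 0.38, adjusted p = 0.0127) were also higher. Usp45 was 1.26 ± 0.52 above R2 (adjusted p = 0.0813) and Usp49 0.36 above (adjusted p = 0.438), and neither was called.

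Otud5, also named Duba and known for cutting chains from Traf3, had log2 signals of 9.93 and 10.30 in R1, 10.17, 10.04 and 10.32 in R2, 11.33, 12.36 and 11.38 in R3, 11.39 on the R4 array, and 11.12 and 13.30 in R5. All arrays from R3 on exceeded those of R1 and R2, and the 2 R5 arrays were 2.19 apart. The rise to R5 was 2.03 ± 0.55 (SE, 4.1-fold, adjusted p = 0.0201). Its OTU relative Otud7b, also named Cezanne and selective for K11-linked chains, rose by 1.36 ± 0.41 (SE, adjusted p = 0.0291), from 8.72, 8.56 and 9.07 in R2 to 9.66 and 10.61 in R5.

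Usp15 had 10.76 and 11.12 in R1, 11.60, 11.36 and 11.96 in R2, 12.43, 13.25 and 12.89 in R3, 12.60 on the R4 array, and 12.62 and 14.38 in R5. The arrays of R3 to R5 all exceeded those of R1 and R2. The rise to R5 was 1.86 ± 0.47 (SE, 3.62-fold, adjusted p = 0.0153).

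Usp19, whose best known form is anchored in the endoplasmic reticulum, had 9.40 and 9.44 in R1, 9.49, 9.54 and 9.41 in R2, 9.99, 10.79 and 10.24 in R3, 10.57 on the R4 array, and 10.77 and 11.67 in R5. R1 and R2 were nearly level and each later array was higher. The rise to R5 was 1.74 ± 0.35 (SE, 3.34-fold, adjusted p = 0.00642).

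Usp18 removes ISG15, a ubiquitin-like protein, rather than ubiquitin. It gave log2 signals of 6.69, 6.68 and 6.94 in R2, 7.51, 7.90 and 7.43 in R3, 7.72 on the R4 array, and 7.85 and 9.36 in R5, and it rose by 1.84 ± 0.50 (SE, 3.57-fold, adjusted p = 0.02) from its only probe set. The R2 arrays all lay below those of R3 and R5, while R1, at 6.72 and 7.57, overlapped R2 and R3. Usp25, a paralog of Usp28, rose by 1.76 ± 0.60 (SE, 3.39-fold, adjusted p = 0.0449), from 9.52, 10.73 and 10.96 in R2 to 11.40 and 12.92 in R5. That call held in 5 of the 8 alternative settings that kept all arrays. It was lost without R2 replicate 1, R2 replicate 2, R3 replicate 1 or R3 replicate 3. Usp28 differed by 0.01 ± 0.94 (adjusted p = 0.997), with R5 arrays at 8.35 and 5.76, and the difference between these paralogs was not tested.

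Usp40 was read from a probe set whose values differ mainly at R5. Its log2 signal was 8.05 and 7.88 in R1, 7.35, 7.52 and 7.27 in R2, 7.43, 7.72 and 7.26 in R3, 7.32 on the R4 array, and 8.56 and 8.58 in R5. It stayed low through R4 and was high on both R5 arrays, by 1.19 ± 0.35 over R2 (SE, adjusted p = 0.0261). Of its 3 other probe sets 1 had the same pattern, and the other two were already 1.17 and 1.25 higher in R3 than in R2.

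Among the genes that fell to R5, Uchl5, a deubiquitinase of the proteasome and of the INO80 chromatin remodeller, had 12.80 and 12.17 in R1, 13.00, 12.57 and 12.54 in R2, 11.86, 11.68 and 11.88 in R3, 11.63 on the R4 array, and 11.46 and 10.29 in R5. All arrays from R3 on lay below R1 and R2. The fall was -1.83 ± 0.37 (SE, 3.54-fold, adjusted p = 0.00624), and a second probe set gave -0.17. Usp14, the other cysteine protease of the proteasome, had 12.07 to 12.36 in R2 and 12.33 and 13.76 in R5, a difference of 0.81 ± 0.40 (adjusted p = 0.133). Other probe sets of Usp14 gave 2.05, 2.40 and 0.29, and with the mean of all probe sets Usp14 was called higher. Usp5, which takes apart free chains, did not pass the test.

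By the probe sets used, Usp37, Usp39 and Usp1 had R3 levels at or above those of R2 or overlapping them. Their step from R3 to R5 did not pass the test. Usp37, which acts on cyclin A in S-phase entry, had 9.34, 9.81 and 9.61 in R2, 9.26, 9.94 and 9.75 in R3, 8.81 on the R4 array, and 8.27 and 7.84 in R5, a fall of -1.53 ± 0.34 from R2 (SE, 2.89-fold, adjusted p = 0.00895). Usp39, a splicing factor that lacks the catalytic residues, had 12.58, 12.52 and 12.85 in R2, 12.68, 12.68 and 13.11 in R3, 12.19 on the R4 array, and 11.63 and 11.24 in R5, a fall of -1.22 ± 0.27 (SE, adjusted p = 0.00937). For both genes R2 and R3 overlapped and R4 and R5 lay below them.

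Usp1, which works with Wdr48 on Fancd2 and PCNA, had 13.39, 13.33 and 13.48 in R2, 13.81, 13.56 and 13.61 in R3, 13.42 on the R4 array, and 12.78 and 12.07 in R5, a fall of -0.98 ± 0.27 (SE, adjusted p = 0.0223). R5 was its lowest fraction. Other probe sets of Usp1 differed between R2 and R3 by -0.05 and -0.53, and in the latter every R3 array lay below R2. Usp6nl had 9.32, 9.62 and 10.42 in R2 and 8.46 and 7.99 in R5, a fall of -1.56 ± 0.38 (SE, adjusted p = 0.014).

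Usp11 was lower in R5 by -1.37 ± 0.38 (SE, adjusted p = 0.0217). Usp38 fell by -1.21 ± 0.34 (SE, adjusted p = 0.0228), from 9.64, 9.73 and 9.999 in R2 to 8.96 and 8.20 in R5. Usp16, a histone H2A deubiquitinase, fell by -1.27 ± 0.34 (SE, adjusted p = 0.0194), from 10.56, 10.12 and 10.40 to 9.49 and 8.70, but a dimmer probe set of it differed by 1.02. Usp36, at -1.11 (adjusted p = 0.0775), and Usp22, at -0.36 (adjusted p = 0.45), were not called at R5.

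**Figure D4:**
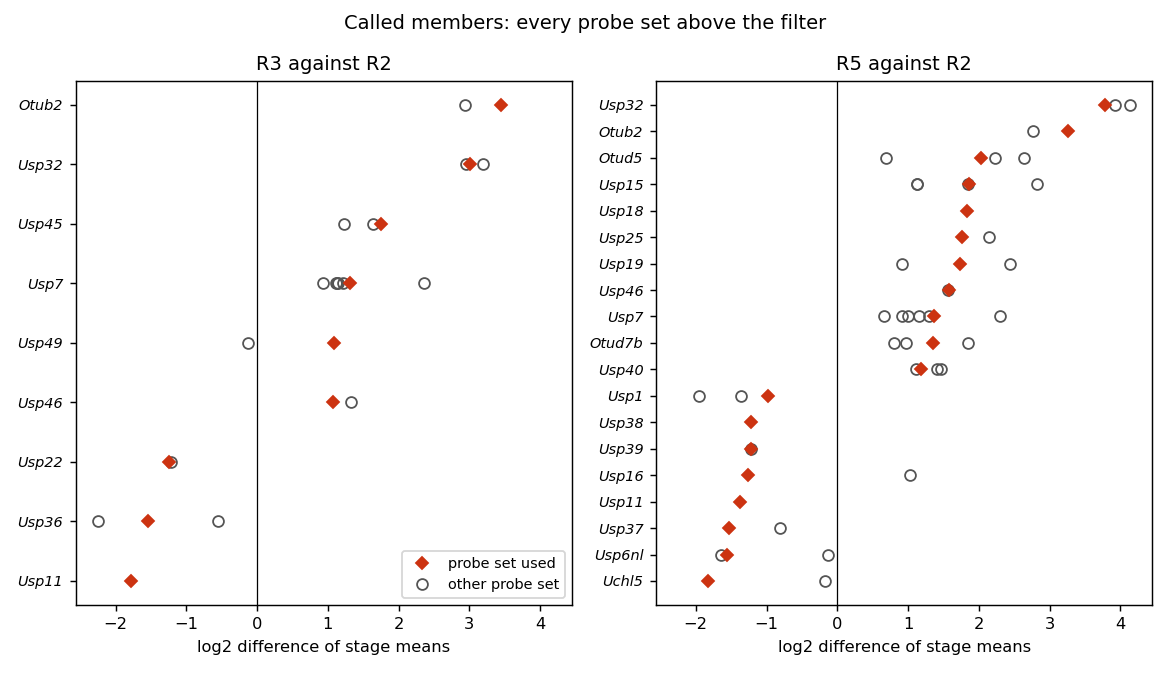
Change in log2 signal of the called members, with a diamond for the probe set used and circles for the gene's other probe sets above the filter. Usp49 in the R3 comparison and Usp16 in the R5 comparison have a circle on the other side of 0.

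Agreement between probe sets was checked for every call. Between R2 and R3, 8 of the 9 called members had other probe sets, and for 7 of these all went the same way. Between R2 and R5, 16 of the 19 had others, and for 15 all went the same way. The exceptions were Usp49 and Usp16, and Usp11, Usp18 and Usp38 had a single probe set. Uchl3, which trims ubiquitin and Nedd8 ends, is not a member, since its probe set is shared with Uchl4. That shared set had 12.64, 11.97 and 12.28 in R2, 11.24, 9.49 and 11.15 in R3, and 11.30 and 8.85 in R5, and was not tested. In all, 5 probe sets were shared between a member and another gene and were left out.

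By role, the R5 counts stand beside the 33% of all genes called, 16.7% higher and 16.3% lower. They included Usp32, Usp15 and Usp19 of the 10 members listed under endosomes, secretory or organelle membranes, all upward, at a group median of 0.43. That list is broad, and a place in it does not mean that a member, such as Usp15, sits at a membrane. The OTU enzymes gave 2 rises of 6 (Otud5 and Otud7b) at a median of 0.74. The DNA damage and replication group gave 2 rises (Otub2 and Usp7) and 3 falls (Usp37, Usp11 and Usp1), at a median of -0.06. Histone deubiquitinases gave 1 rise (Usp46) and 1 fall (Usp16) of 9, at a median of -0.36. Usp18 rose and Usp39 fell among the 4 non-classical members, and Uchl5 fell among the 4 enzymes of the proteasome and free ubiquitin. No role group was compared with the others by a test.

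From R1 to R2, no member was called by limma. The background was 0.466% of all genes, and 3 members had an unadjusted p under 0.05, compared with 1750 of 13100 genes. Usp12 (adjusted p = 0.306), Usp6nl (adjusted p = 0.343) and Usp22 (adjusted p = 0.345) were those 3. Usp22 had an estimate of -0.85, from 11.06 on both R1 arrays. Estimates ran from -1.78 for Uchl1, the neuronal ubiquitin hydrolase, to 1.10 for Usp45. The Uchl1 value came from R1 arrays at 5.98 and 8.74, which were further apart than the estimate itself. The arrays of R1 and R2 did not overlap for 22 members, beside 36.3% of all genes. The count of calls was also 0 with any array of R2, R3 or R4 left out and under every setting that kept all arrays. At most 0.763% of all genes were called in any of these, and in several no gene was called. A count of 0 there says little about the members.

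From R3 to R5, no member was called by limma either, with a background of 0.00763%, which is 1 gene of 13100. At an unadjusted p under 0.05 there were 13 members, compared with 2488 of all genes. The replicate block gave 2 (Usp1 and Usp39, lower), when 1.29% of all genes were called. The closest were Usp39 (adjusted p = 0.0528), Usp37 (-1.60, adjusted p = 0.0633) and Usp1 (adjusted p = 0.0712), and the R5 arrays of each lay below all its R3 arrays. In all, 19 members had R3 and R5 arrays that did not overlap, beside 36.4% of all genes. Without R5 replicate 1 the count was 4 (Uchl5, Usp1, Usp37 and Usp39, all lower; 4.83% of all genes), and with the arrays centred on their median it was 5 (Usp1, Usp24, Usp37, Usp39 and Usp6nl, all lower; 4.49% of all genes).

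The single R4 array gives values with no test. It lay between the R3 range and the R5 range for Usp37 (8.81) and Usp39 (12.19), and below the R3 range for Otub2 (11.38). For Usp32 (14.54) and Usp11 (8.04) it was inside or next to the R3 range, on the same side of R2 as R3 and R5.

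Across R1, R2, R3 and R5 together, the moderated F-test called 24 of 53 members (45.3%), and 36.9% of all genes. The smallest adjusted p-values were those of Usp32 (0.00032), Usp7 (0.00343), Otub2 (0.00491) and Usp11 (0.00527). The count fell to 14 without R2 replicate 1, R2 replicate 2, R3 replicate 1 or R3 replicate 3. The share of all genes called fell in each of these fits too, and was 20.6% to 29.5% without those R2 and R3 arrays. The authors' deposited table listed 1 of the 53 tested members with a p under 0.05 for R3 against R2, which was Usp32, beside 501 of 13100 genes. For R5 against R2, the authors' deposited table had 5 such members (Otub2, Uchl5, Usp19, Usp32 and Usp37), beside 1829 of 13100.

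Other parts of the ubiquitin system give context. Of 24 further genes listed with the deubiquitinase families outside the symbol rule, 23 were tested. The list goes by family and not all of its genes remove ubiquitin, as with Cops5, a deneddylase. Between R2 and R3 4 of the 23 rose and none fell, which is 17.4%. Yod1, an OTU enzyme that works with the segregase p97, rose by 3.23 ± 0.27 (SE, adjusted p = 0.000222) and Mindy2, selective for K48-linked chains, by 2.95 ± 0.45 (SE, adjusted p = 0.00235). Josd2, of the Machado-Joseph disease family, rose by 2.27 ± 0.35 (SE, adjusted p = 0.00267) and Zranb1 by 1.04 ± 0.27 (SE, adjusted p = 0.0237). Changes of the size seen for Usp32 were therefore also present outside the Usp, Otud, Otub and Uchl genes.

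Between R2 and R5, 5 of these 23 rose and 3 fell, which is 34.8%. Yod1 was higher by 3.88 ± 0.30 (SE, adjusted p = 8.3e-05) and Mindy2 by 3.47 ± 0.50 (SE, adjusted p = 0.00112). The falls were those of Alg13 (-2.53 ± 0.41, adjusted p = 0.00204), Cops5, the deneddylase of the COP9 signalosome (-1.31, adjusted p = 0.0341), and Bap1, a nuclear H2A deubiquitinase (-1.07, adjusted p = 0.0165).

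Proteins known to work with deubiquitinases were followed as well. Of 16 tested partners, between R2 and R3 2 rose (Wdr20rt by 1.91 and Hgs by 0.81) and 1 fell (Nfrkb by -0.90), which is 18.8%. Wdr20rt was dim, with a mean of 4.46 in R2, where the array medians were 5.74 to 6.06. Its mean in R3 was 6.37, where they were 6.18 to 6.45, so its rise was read near the filter. Between R2 and R5 2 rose (Wdr20rt by 2.31 and Hgs by 1.07) and 4 fell, and the falls were those of Gmps, a partner of Usp7 (-1.84, adjusted p = 0.0129), Eny2, of the Usp22 module (-1.41, adjusted p = 0.00959), G3bp1, a partner of Usp10 (-1.24, adjusted p = 0.0133), and Wdr48 (-1.01, adjusted p = 0.0446). Wdr20, the other partner of Usp46, differed by 0.15 (adjusted p = 0.765). Of the ubiquitin and E1 genes 3 of 11 were tested. Uba7, the E1 of ISG15, rose by 2.93 ± 0.38 from R2 to R3 (SE, adjusted p = 0.00116) and was 3.27 higher in R5 (adjusted p = 0.000662), and Usp18, which removes ISG15, was the member noted above that rose to R5. Uba6, an alternative E1, fell by -1.16 ± 0.36 from R2 to R3 (SE, adjusted p = 0.0429).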

How the data were processed

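Total RNA of 11 sorted fetal liver fractions was measured on 1 array each. The authors deposited linear signal intensity per probe set, and MAS5 and limma are named in the submitters' processing notes. The deposited intensities had a trimmed mean of 500 on each array. A further deposited table holds log2 differences from R2 and p-values by the authors, used only where it is named. Values were taken to log2 with no pseudocount. Where a gene had several single-gene probe sets, the one with the highest mean was used, and genes were tested if it reached the array median on at least 2 arrays. All arrays entered 1 fit (limma 3.58.1 in R 4.3.3, eBayes with trend, 6 residual degrees of freedom), with Benjamini-Hochberg adjustment over 13100 genes and calls at an adjusted p under 0.05. The scripts were tested on simulated data.

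The labels do not say whether replicate arrays stem from separate animals or sorting runs. The p-values therefore cover only the scatter among arrays, possibly technical, and the small number of arrays limits precision. No 2 arrays were identical, and arrays of a fraction correlated at 0.851 to 0.95. Members, role groups and gene lists were chosen with earlier results of these data known. By rule every called member was named, with all array values for the largest changes each way, and up to 4 called genes each way from each list. Promoter windows were matched by gene ID. The labels name a Cy5 dye for these short-oligonucleotide probe sets, and the labelling used remains unclear. Alternatives were other scalings, a pseudocount of 50, no filter, the mean of probe sets, eBayes without trend, fewer fractions in the fit, a replicate block and each array left out.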

Additional observations from a re-analysis of the deposited data

How the results depend on the processing

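All 28 named changes of called members kept their direction in the 19 alternative settings. Several of these settings could not turn a direction, since they leave the difference of fraction means as it was. These were eBayes without trend, fewer fractions in the fit, no filter and leaving out an array of a fraction not compared. The 28 were chosen as called in these data, and a gene called in both comparisons counts in each. The counts of called members moved more. Between R2 and R3 the count of 9 became 19 with only R2 and R3 in the fit, when 28.8% of all genes were called. It became 20 (12 up, 8 down) with the replicate number as a block, when 32% of all genes were called. Leaving out 1 array of R2 or R3 gave 3 to 9, when 6.41% to 21.4% of all genes were called. Between R3 and R5 the count of 0 became 5 with arrays centred on their median, when 4.49% of all genes were called. It became 2 with the replicate block (Usp1 and Usp39, lower), when 1.29% were called. With 1 array of R2 or R3 left out it stayed at 0, when no gene at all was called. Between R2 and R5 the count of 19 became 11 with only the fractions compared in the fit, 25 with the replicate block and 1 to 26 with 1 array left out. The F-test count of 24 became 15 with the mean of all probe sets, 14 without the intensity trend and 13 to 27 with 1 array left out. The share of all genes called moved the same way in these settings and varied widely when 1 array was left out. Between R2 and R5 that share was 20.7% with only the fractions compared in the fit and 37.4% with the replicate block. For the F-test it was 30.8% with the mean of all probe sets and 28.3% without the intensity trend. The causes of these shifts were not tested. Arrays with the same replicate number did not deviate together throughout: over 13 such pairs r ran from -0.15 to 0.40, with a median of 0.22 and 10 over 0.1, while over 24 pairs of different number the median was -0.17 and 4 were over 0.1. The deviations were taken from fraction means, so the 2 arrays of R1, and those of R5, mirror each other. The r of 1 pair then fixes that of another with the opposite sign, and the 2 medians are not separate evidence. The check cannot decide whether arrays of the same number share a run. Since the label on extraction dates can be read in more than 1 way, the block was kept as an alternative. No detection calls were used, so the limits set by signal over background are unknown for dim members.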
